A study of Mus musculus with 29 samples.

Results

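Astrocytes release proteins that act on neighbouring synapses, and 9 genes coding for such proteins were followed here through every ribosome fraction of a pair of mouse lines. They were taken by name as the rows of the deposited gene table with the symbols Sparcl1, Sparc, Gpc4, Gpc5, Gpc6, Chrdl1, Thbs1, Thbs2 and Thbs4. All 9 were found, of 36172 gene rows, and all 9 passed the filter on low counts in every comparison. They were chosen with earlier results of these data known. The question asked of the data was how far each gene followed ribosomes tagged in astrocytes and ribosomes tagged in microglia.

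The astrocyte line was Aldh1l1-cre/ERT2+; NuTRAP+ in genotype, and the microglial line was Cx3cr1-cre/ERT2+; NuTRAP+. Both carry 1 copy of the NuTRAP allele, a floxed cassette that places EGFP on the ribosomal protein L10a once Cre has acted. A tamoxifen-dependent Cre is driven by Aldh1l1, a folate enzyme gene of astrocytes, or by Cx3cr1, a fractalkine receptor gene of microglia that other brain macrophages also use. Every mouse of either line, male or female and about 3 months old, was given tamoxifen on 5 successive days, each dose being 100 mg/kg. For the microglial line the paper describes a longer wait before brain collection than for astrocyte-line mice used in cytometry and imaging. In TRAP, the tagged ribosomes and their RNA were pulled from the homogenate of a brain hemisphere by an antibody to GFP as the positive fraction. The unbound RNA was kept as the negative fraction, and cleared homogenate set aside before the pull-down was the input. Whole tissue RNA was isolated in the conventional way without TRAP. The 29 libraries held positive and negative fractions of 3 Aldh1l1-NuTRAP mice (290, 293 and 294), and positive, negative and input fractions of 6 Cx3cr1-NuTRAP mice (155, 192, 194, 209, 210 and 277). They also held whole tissue of 5 of the latter, all but mouse 155. For Aldh1l1-NuTRAP mice, whole tissue and input were not analysed here.

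Of these proteins, hevin and SPARC are a pair of related matricellular proteins with opposed known roles. Hevin, the product of Sparcl1, promotes excitatory synapses by linking adhesion proteins across the synapse, and SPARC counters it. Glypicans are heparan sulphate proteoglycans held on the cell surface, and glypican 4 and glypican 6 shed by astrocytes recruit AMPA-type glutamate receptors to young synapses. Chordin-like 1 (Chrdl1) is a secreted binder of bone morphogenetic proteins that promotes the entry of the GluA2 subunit into maturing synapses. Thrombospondins are large matrix glycoproteins that induce structurally complete but silent synapses through the calcium channel subunit alpha2delta-1.

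Total counts per library ranged from 8782235 to 25137834 in the Aldh1l1-NuTRAP fractions and from 15486605 to 26857866 in the positive, negative and input fractions of Cx3cr1-NuTRAP mice. In whole tissue they ranged from 4260949 to 25026611. Levels are given in CPM, the counts of each library scaled to a common total. Fold changes were fitted by edgeR on counts scaled by its TMM method, and a gene was called at a Benjamini-Hochberg adjusted p under 0.05 over all genes tested. The genes that drive Cre followed their lines. Aldh1l1 was at 540.1 ± 40.4 CPM (SD, n = 3) in the positive and 71.4 ± 13.3 CPM (SD, n = 3) in the negative fractions of its line. Cx3cr1 was at 274 ± 84.9 CPM (SD, n = 6) in the positive fractions of its line and at 27.3 ± 1.27 CPM (SD, n = 6) in the inputs. The summed level of 5 astrocyte markers (Aldh1l1, Gfap, Aqp4, Slc1a3 and Gja1) was 6108 to 8076 CPM in the Aldh1l1-NuTRAP positive fractions and 1017 to 1096 CPM in the negative fractions. Choroid plexus markers, 4 in number (Ttr, Folr1, Kl and Clic6) moved with it, at 2889.8 to 3360 CPM in the positive and 480.4 to 629.8 CPM in the negative fractions. Ependymal markers (Foxj1, Ccdc153 and Tmem212) summed to 38.3 to 49.2 and 16.3 to 29.2 CPM, with 1 of 2 tested called higher. Pericyte and smooth muscle markers (Pdgfrb, Rgs5, Acta2, Myh11 and Vtn) summed to 89.2 to 105 and 97.7 to 122 CPM. Of 4 tested, 2 were called higher and 1 lower. The part of these lists in the results below was not tested. Neuronal markers (Snap25, Syt1, Rbfox3, Slc17a7 and Gad1) summed to 1163 to 1622 CPM in those positive and 5062 to 6411 CPM in those negative fractions. In these bulk fractions, fewer cells of a type and less RNA per cell cannot be told apart.

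The genes differ in size and place (mm10, as in the deposited table). Sparcl1 (Entrez 13602) lies at chr5:104079109-104114088 on the minus strand. Sparc (20692) lies at chr11:55394501-55420080, also on the minus strand. Gpc5 (103978) and Gpc6 (23888) lie one after the other on the plus strand of chromosome 14, at chr14:115092215-116525192 and chr14:116925315-117979529. They are the longest of the 9 genes, at 1433 and 1054 kb. Gpc4 (14735) lies at chrX:52053018-52164923 and Chrdl1 (83453) at chrX:143285674-143394262, both on the minus strand. Thbs1 (21825) lies at chr2:118111922-118127133 on the plus strand. Thbs2 (21826) lies at chr17:14665500-14694262 and Thbs4 (21828) at chr13:92751586-92794818, both on the minus strand.

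Promoter sequences, from 250 bases before to 50 after the start of the gene, were held for 5 of the 9 genes (Sparc, Gpc4, Gpc5, Thbs2 and Thbs4) in the RefSeq set on GRCm38.p6. The 3 printed here belong to the genes with the largest rises in the astrocyte positive fractions among those 5, and Sparc is also the gene that rose in the microglial positive fractions over input and over the negative fractions. Capitals mark the letters TTGGC on either strand (GCCAA), part of the recognition sequence of NFI factors, which are known regulators of astrocyte genes. The windows lie at chr11:55420031-55420330, chr14:115091965-115092264 and chr13:92794769-92795068, and each is written 5′ to 3′ on the strand of its gene.
Sparc: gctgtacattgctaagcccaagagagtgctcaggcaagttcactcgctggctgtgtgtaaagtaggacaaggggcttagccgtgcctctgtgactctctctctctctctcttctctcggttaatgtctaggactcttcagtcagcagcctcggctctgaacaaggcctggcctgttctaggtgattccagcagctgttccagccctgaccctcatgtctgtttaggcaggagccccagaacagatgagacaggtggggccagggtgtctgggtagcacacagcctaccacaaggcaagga
Gpc5: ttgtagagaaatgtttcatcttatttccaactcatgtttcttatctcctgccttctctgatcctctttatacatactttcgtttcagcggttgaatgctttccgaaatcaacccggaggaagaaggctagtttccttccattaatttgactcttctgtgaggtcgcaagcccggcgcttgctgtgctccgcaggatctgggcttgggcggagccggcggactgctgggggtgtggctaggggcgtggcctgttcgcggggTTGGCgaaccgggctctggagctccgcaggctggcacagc
Thbs4: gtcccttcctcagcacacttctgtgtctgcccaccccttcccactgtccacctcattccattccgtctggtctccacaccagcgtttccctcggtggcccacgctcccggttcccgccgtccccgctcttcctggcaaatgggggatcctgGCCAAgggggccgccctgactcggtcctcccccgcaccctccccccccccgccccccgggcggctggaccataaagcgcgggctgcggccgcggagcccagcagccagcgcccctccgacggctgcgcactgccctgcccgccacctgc

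These NFI letters were present in the promoters of Gpc5 (1 match), Thbs2 (2 matches) and Thbs4 (1 match) and not in those of Sparc and Gpc4. They were present in 46.7% of 32851 RefSeq promoters of the same length. The TATA box letters TATAAA (either strand) occurred in the Gpc5 and Thbs2 promoters and in 13.6% of all promoters. The GC box letters GGGCGG (either strand) occurred once each in Gpc4 and Gpc5, 3 times in Thbs4 and in 35.7% of all promoters. The letters ACAAAG, a SOX motif, occurred in none of the 5 and in 18.7% of all promoters. The share of G and C ranged from 48.3% in Thbs2 to 72% in Thbs4, with a median of 52.7% over all promoters.

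In Aldh1l1-NuTRAP mice, 7 of the 9 genes rose in the positive fraction over the negative fraction, by 2.13-fold to 9.32-fold. Gpc5, Sparc, Chrdl1, Sparcl1 and Thbs4 rose most, Thbs2 and Gpc4 rose less, and Gpc6 and Thbs1 did not pass the test. No gene fell by edgeR's test, by DESeq2 or at an unadjusted p under 0.05 (0 of 9 each). Of all 13319 genes tested, 26.8% were called higher and 24.8% lower (3569 and 3299 genes). These were 1977 and 1685 genes without mouse 293 and 1987 and 1600 without mouse 294. The median log2 fold change was 2.39 over the 9 genes and 0.04 over all genes tested.

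Sparcl1 was the most abundant of the 9. It stood at 7177, 8069 and 7946 CPM in the positive fractions of mice 290, 293 and 294, and at 1703, 1686 and 1582 CPM in their negative fractions. The lowest positive fraction was more than 4 times the highest negative fraction of any mouse, and within mice the CPM ratio was 4.21 to 5.02. The log2 fold change was 2.57 ± 0.13 (SE, adjusted p = 3.37e-05, edgeR).

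Sparc stood at 4021, 4504 and 4621 CPM in the positive and at 821, 654 and 675 CPM in the negative fractions of the same mice. The fractions did not overlap, and mouse 290 was lowest in the one and highest in the other. The log2 fold change was 2.95 ± 0.16 (SE, adjusted p = 3.99e-05, edgeR), so both genes of this antagonistic pair were higher on astrocyte ribosomes.

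Gpc5 codes for a glypican that astrocytes express strongly. It stood at 309.7, 307 and 273 CPM in the positive and at 50.6, 41.7 and 29.2 CPM in the negative fractions. This was the largest fold change of the 9, at 3.22 ± 0.25 on the log2 scale (SE, adjusted p = 9.12e-05, edgeR). Gpc4 was far lower, at 19.1, 20.5 and 18 CPM in the positive and 10.6, 12.4 and 11.2 CPM in the negative fractions. The ranges did not overlap, and the log2 fold change was 1.09 ± 0.16 (SE, adjusted p = 0.00126, edgeR), the smallest of the 7 called.

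Gpc6 differed between mice more than between fractions. In mice 293 and 294 it stood at 41.6 and 58.9 CPM in the positive and at 31.3 and 26 CPM in the negative fraction. In mouse 290 both were higher and their order was turned, at 125 CPM in the positive and 172 CPM in the negative fraction. The log2 fold change over the 3 mice was 0.32 ± 0.77 (SE, adjusted p = 0.753, edgeR). Without mouse 290 it was 1.12 ± 0.18 (SE, adjusted p = 0.000605, edgeR), and 8 of the 9 genes were then called higher.

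Chrdl1 stood at 50, 73.9 and 69.3 CPM in the positive and at 14.7, 11 and 14.3 CPM in the negative fractions. Its log2 fold change was 2.62 ± 0.22 (SE, adjusted p = 0.000116, edgeR), close to that of Sparcl1, with no overlap between the fractions.

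The 3 thrombospondin genes differed from each other. Thbs4 stood at 20.2, 29.1 and 21.9 CPM in the positive and at 5.81, 6.01 and 5.48 CPM in the negative fractions, a log2 fold change of 2.39 ± 0.2 (SE, adjusted p = 0.000123, edgeR). Thbs2 stood at 16.4, 20.5 and 20 CPM against 8.86, 9.48 and 10.4 CPM, a log2 fold change of 1.33 ± 0.17 (SE, adjusted p = 0.000662, edgeR). For both genes every positive fraction was above every negative fraction. Thbs1 stood at 1.76, 2.9 and 4.59 CPM against 3.07, 3.46 and 4.96 CPM, and its fractions overlapped. Its smallest count was 21 in a positive fraction, and its log2 fold change of 0.04 ± 0.38 (SE, adjusted p = 0.942, edgeR) did not exceed the spread between mice.

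These folds depended in size on how libraries were scaled. Scaled by library totals only, the median log2 fold change of all genes moved from 0.04 to -0.31, and the share of calls that were higher moved from 52% to 33.6%. The same 7 genes stayed called higher in each setting tried, with log2 fold changes of 0.75 or more. The values of Gpc6 and Thbs1 turned to -0.02 and -0.3 under library totals only.

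**Figure D1:**
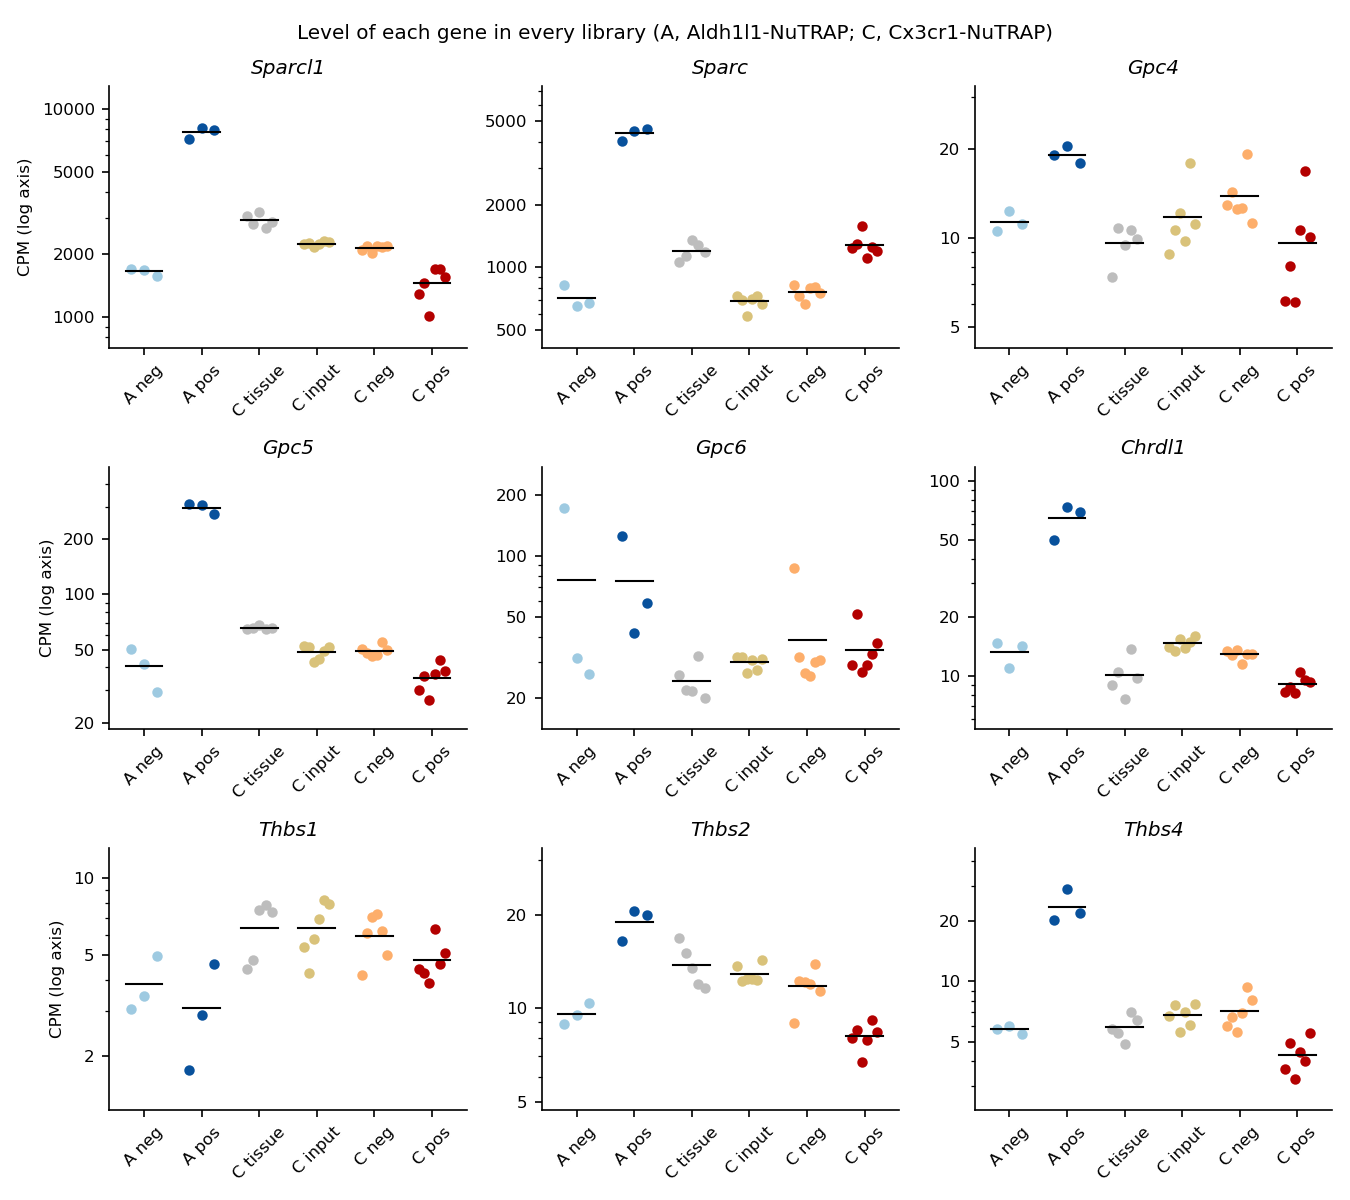
Level of each gene (CPM, log axis, 1 panel per gene) in the 6 groups, with 1 point per library and a bar at the group mean. The Aldh1l1-NuTRAP positive fractions (A pos) stood above all other groups without overlap for Sparcl1, Sparc, Gpc5, Chrdl1 and Thbs4, while Thbs1 stayed under 9 CPM in every library.

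Across all 6 groups the order of levels differed from gene to gene. Sparcl1, Gpc4, Gpc5, Chrdl1, Thbs2 and Thbs4 had their highest mean in the Aldh1l1-NuTRAP positive fractions and their lowest in the Cx3cr1-NuTRAP positive fractions. For Sparcl1 the means fell from 7731 ± 484 CPM (SD, n = 3) through whole tissue at 2923 ± 207 CPM (SD, n = 5) and Cx3cr1-NuTRAP inputs at 2256 ± 48.7 CPM (SD, n = 6). They ended at 1453 ± 262 CPM (SD, n = 6) in the Cx3cr1-NuTRAP positive fractions, whose range overlapped that of the Aldh1l1-NuTRAP negative fractions. For Sparc the Cx3cr1-NuTRAP positive fractions came second, at 1277 ± 159 CPM (SD, n = 6), and overlapped whole tissue at 1202 ± 113 CPM (SD, n = 5). For Gpc4, Gpc6, Thbs1 and Thbs2 each group overlapped its neighbour in the order of means. Compared per kilobase of the principal GENCODE transcript, the means in the Aldh1l1-NuTRAP positive fractions were 2802 for Sparcl1, 1905 for Sparc and 173 for Gpc5. They were 21.5 for Gpc6, 15.7 for Chrdl1, 7.42 for Thbs4, 7.25 for Gpc4, 3.22 for Thbs2 and 0.528 for Thbs1, all in CPM per kb. The libraries thus held Sparcl1 and Sparc at levels per length far above those of the glypicans, chordin-like 1 and the thrombospondins.

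On ribosomes tagged through Cx3cr1, Sparc was the only one of the 9 genes to rise over input, while Sparcl1, Gpc5, Chrdl1, Thbs2 and Thbs4 fell. Gpc4, Gpc6 and Thbs1 did not pass the test. Of all 13838 genes tested, 23.3% were called higher and 25.6% lower, against 1 and 5 of the 9. The median log2 fold change was -0.46 over the 9 genes and 0 over all genes.

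Sparc ranged from 588 to 733 CPM in the inputs, with a median of 703, and from 1106 to 1575 CPM, around a median of 1246, in the positive fractions. The groups did not overlap, and the CPM ratio within mice was 1.56 to 2.68, above 1 in 6 of 6 mice. The log2 fold change was 0.91 ± 0.09 (SE, adjusted p = 2.7e-06, edgeR). Mouse 194 had the highest Sparc of the positive fractions (1575 CPM) and the lowest Sparcl1 (1015 CPM), and it also had the highest summed level of 5 microglial markers, at 2298 CPM. Its astrocyte sum (703 CPM, the others 877 to 1054) and its choroid plexus sum (214 CPM, the others 504 to 1031) were the lowest, and the part of these in its values was not tested. Those microglial markers (Cx3cr1, C1qa, Aif1, P2ry12 and Tmem119) summed to 959 to 2298 CPM in the positive fractions and to 112 to 124 CPM in the inputs. Of 5 endothelial markers (Cldn5, Pecam1, Flt1, Tek and Cdh5), 2 were called higher over input, and their sums were 61.6 to 140.3 CPM in the positive fractions and 71.4 to 86 CPM in the inputs. Fibroblast markers (Col1a1, Col1a2, Dcn, Lum and Col3a1) summed to 55.9 to 68.4 CPM and 84.4 to 129 CPM, with 0 of 5 called higher and 3 lower by edgeR. Each of these markers exceeded 3 counts in at least 1 library of each group. Of 4 tested pericyte and smooth muscle markers, 1 was called higher over input and 2 lower. Their sums were 67.3 to 120.1 CPM in the positive fractions and 114 to 126 CPM in the inputs. The part of endothelial RNA or of RNA of these other cells in the Sparc result was not tested.

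Sparcl1 ranged from 2166 to 2309 CPM in the inputs, with a median of 2262, and from 1015 to 1696 CPM, around a median of 1509, in the positive fractions. The positive fraction was lower in 6 of 6 mice, at 0.469 to 0.753 of the input, and the log2 fold change was -0.62 ± 0.1 (SE, adjusted p = 0.000224, edgeR). The genes of the hevin and SPARC pair thus moved in opposite directions relative to input in the Cx3cr1-NuTRAP positive fractions. Both rose over the negative fraction in the Aldh1l1-NuTRAP positive fractions. Neuronal markers in the Cx3cr1-NuTRAP positive fractions summed to 4210 to 6408 CPM, against 5850.2 to 6202 CPM in the inputs. Of these 5 markers, 1 was called lower and 0 higher, and their part was not tested.

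The other falls were of similar size. Chrdl1 went from a median of 14.5 CPM (13.4 to 16.1) in the inputs to 8.99 CPM (8.19 to 10.5) in the positive fractions, a log2 fold change of -0.68 ± 0.09 (SE, adjusted p = 3.35e-05, edgeR). Thbs2 went from 12.4 CPM (12.2 to 14.3) to 8.19 CPM (6.72 to 9.19), at -0.65 ± 0.09 on the log2 scale (SE, adjusted p = 6.77e-05, edgeR). Both genes had positive fractions below every input. Thbs4 went from 6.86 CPM (5.57 to 7.75) to 4.21 CPM (3.25 to 5.54), at -0.65 ± 0.14 (SE, adjusted p = 0.00215, edgeR). Gpc5 went from 50.4 CPM (42.7 to 52.3) to 36.1 CPM (26.4 to 43.9), at -0.46 ± 0.1 (SE, adjusted p = 0.00212, edgeR). Thbs4 was lower in every mouse and its groups did not overlap, and Gpc5 was lower in every mouse although its groups overlapped. Each of the 5 stayed at 0.469 or more of its input in every mouse. The 5 astrocyte markers summed to 703 to 1054 CPM in the positive fractions, against 1349.8 to 1552 CPM in the inputs, with 4 of 5 called lower. Also called lower were 2 of 4 choroid plexus and 2 of 2 oligodendrocyte precursor markers (Pdgfra and Cspg4), while 5 of 5 microglial and 2 of 5 endothelial markers were called higher. The part of these markers in the levels of these genes was not tested.

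Against the negative fraction of the same mice the called genes were those called against input. Of 13776 genes tested, 12.8% were called higher and 11.6% lower (1759 and 1593 genes). Without mouse 192 these were 1177 and 570 genes, without mouse 194 they were 1151 and 868, and without mouse 277 they were 1372 and 866. Sparc rose by 0.77 ± 0.09 on the log2 scale (SE, adjusted p = 2.78e-05, edgeR), in 6 of 6 mice. Sparcl1, Gpc5, Chrdl1, Thbs2 and Thbs4 fell, with log2 fold changes of -0.54, -0.46, -0.48, -0.51 and -0.7 and adjusted p of 0.00192, 0.00422, 0.00162, 0.00504 and 0.00661 (edgeR). These positive fractions also enter the comparison with input, so the calls are not independent of it. Among markers, 4 of 5 astrocyte, 3 of 5 fibroblast, 2 of 4 choroid plexus and 2 of 2 oligodendrocyte precursor markers were called lower and 1 of 5 endothelial markers higher. Of 4 tested pericyte and smooth muscle markers, 1 was called higher and 1 lower. The part of these markers was not tested.

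Gpc4 stood apart through 1 mouse. Mouse 210 had 18 CPM in the input, 19.3 CPM in the negative and 16.9 CPM in the positive fraction, while the other 5 mice had 8.83 to 12.2, 11.3 to 14.4 and 6.08 to 10.7 CPM. In its whole tissue Gpc4 was at 10.7 CPM, within the range of the other mice. The same TRAP fractions of mouse 210 held the pituitary hormone transcripts Prl at 281, 344 and 422 CPM and Pomc at 311, 440 and 469 CPM. The other mice had at most 10.5 CPM of Prl and 12 CPM of Pomc in these fractions. These genes were looked at after the Gpc4 values were seen, and their part in them was not tested. The positive to negative log2 fold change of Gpc4 was -0.5 ± 0.22 (SE, adjusted p = 0.112, edgeR). It was -0.56 (adjusted p = 0.0422) with the mouse as a block and -0.61 (adjusted p = 0.0227) without mouse 210, so 6 of the 9 genes were then called lower.

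Gpc6 was not called against input (0.22 ± 0.14, SE, adjusted p = 0.205) or against the negative fraction (-0.14 ± 0.29, SE, adjusted p = 0.767) by edgeR. Single libraries stood apart again. The positive fraction of mouse 192 held 51.6 CPM, against 26.8 to 37 CPM in the other 5. The negative fraction of mouse 155 held 87.4 CPM, against 25.6 to 31.6 CPM in the other 5, while its positive fraction (29 CPM) lay among theirs. Its input (31.8 CPM) was just above the highest of the other inputs (31.7 CPM). Without mouse 155 the positive to negative log2 fold change of Gpc6 was 0.32, turned in sign and still not called (adjusted p = 0.14, edgeR). The negative fractions of mice 290 and 155 deviated alike from those of the other mice of their lines. Gpc6 ranked 31 of 14109 genes in the one and 39 in the other by its rise over the other mice, at 2.59 and 1.6 on the log2 scale. Across those genes the deviations of the 2 libraries correlated at r = 0.67, and 151 genes were raised by more than 1 on the log2 scale in both, of 707 in mouse 290 and 238 in mouse 155. Genes are not independent replicates, and this check was chosen after the Gpc6 values were seen.

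**Figure D2:**
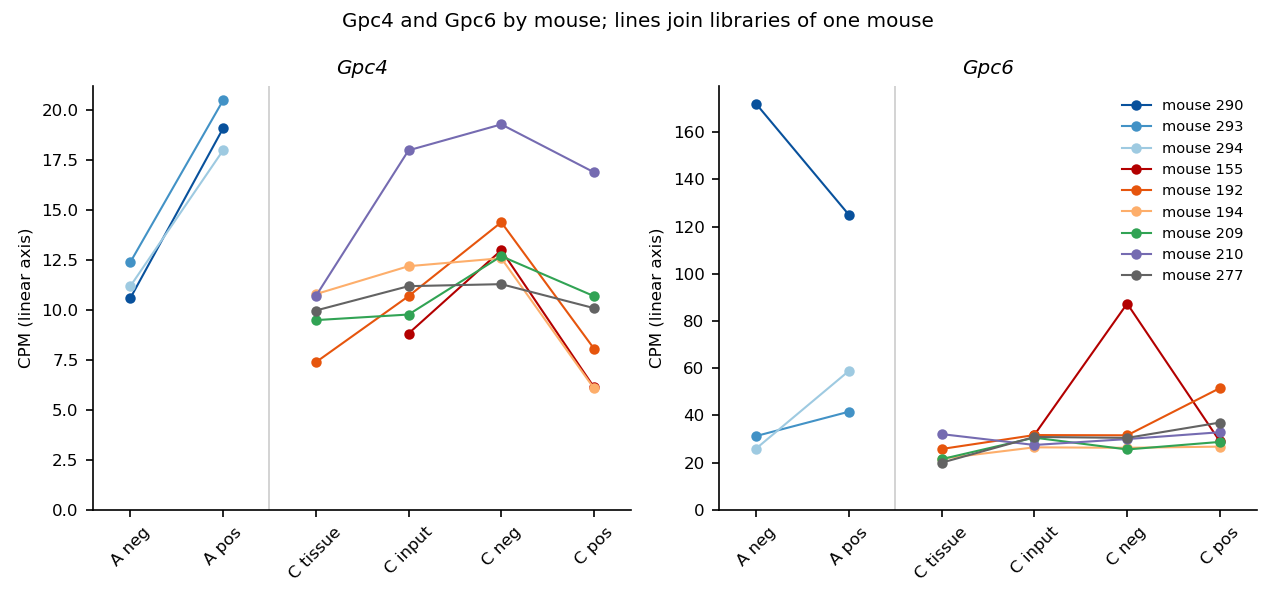
Gpc4 (left) and Gpc6 (right) in CPM on linear axes, with lines joining the libraries of 1 mouse. Mouse 210 stands high for Gpc4 in its 3 TRAP fractions and not in whole tissue, and mouse 290 (both fractions) and mouse 155 (negative fraction only) stand high for Gpc6, as does mouse 192 in its positive fraction by less.

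Whole tissue gave another reference for the microglial positive fractions. Sparcl1 (-0.99 ± 0.12, SE, adjusted p = 2.14e-05), Gpc5 (-0.89 ± 0.1, SE, adjusted p = 1.98e-05) and Thbs2 (-0.75 ± 0.13, SE, adjusted p = 0.000416) fell on the log2 scale by edgeR. In the same comparison 5 of 5 astrocyte and 4 of 5 endothelial markers were called lower and 3 of 5 neuronal markers higher. Also called lower were 3 of 5 fibroblast, 2 of 4 tested pericyte and smooth muscle, 2 of 2 tested ependymal and 2 of 2 oligodendrocyte precursor markers, and their part in these falls was not tested. Thbs4 fell by less, at -0.43 ± 0.17 (SE, adjusted p = 0.0447, edgeR), and was not called with the mouse as a block (adjusted p = 0.106), without the low-count filter (adjusted p = 0.0751) or without any 1 of mice 155, 192, 194, 210 and 277 (adjusted p of 0.0622 to 0.118). Gpc6 rose by 0.54 ± 0.17 (SE, adjusted p = 0.0179, edgeR) from a range of 20 to 32.1 CPM to one of 26.8 to 51.6 CPM, and the groups overlapped. That call was lost without mouse 192 (0.4, adjusted p = 0.055), without mouse 277 (0.46, adjusted p = 0.0849) and with all groups in one fit (0.53, adjusted p = 0.263). Of 13470 genes tested, 27.5% were called higher and 24.3% lower (3705 and 3279 genes, and 2322 and 2696 without mouse 192), against 1 and 4 of the 9.

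Sparc, which rose over input and over the negative fraction, was not called over whole tissue, at 0.11 ± 0.11 on the log2 scale (SE, adjusted p = 0.388, edgeR). Whole tissue held 1065 to 1348 CPM of it and the positive fractions 1106 to 1575 CPM. The rise of Sparc thus depended on the reference chosen. So did the fall of Chrdl1, which was at -0.11 ± 0.15 against whole tissue (SE, adjusted p = 0.538, edgeR). Endothelial markers summed to 197 to 223 CPM in whole tissue of 4 mice and to 111 CPM in that of mouse 210, the library of lowest depth, against 71.4 to 86 CPM in the inputs. That library of mouse 210 also stood apart in its pericyte and smooth muscle sum (119.6 CPM, the others 159 to 172) and its microglial sum (172 CPM, the others 109.6 to 123), and the part of these in the result was not tested.

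**Figure D3:**
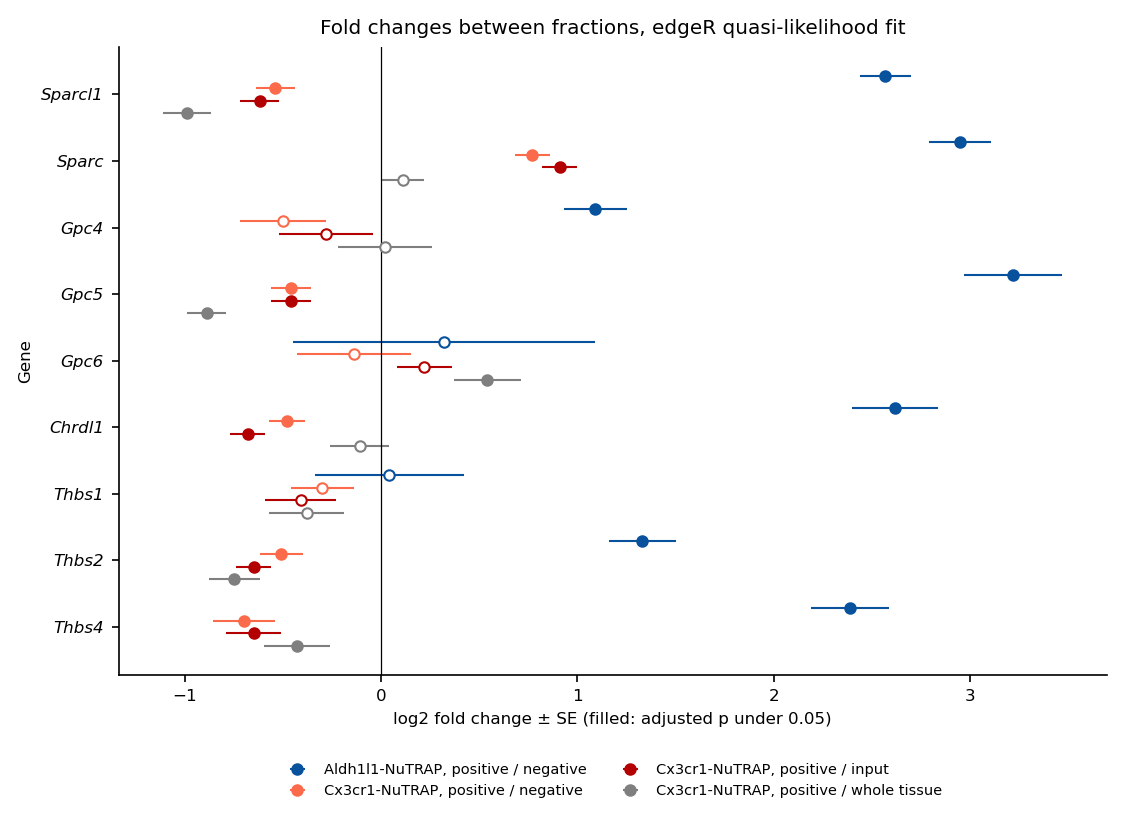
Log2 fold change ± SE of each gene (x axis) in 4 comparisons of fractions, with filled points at an adjusted p under 0.05. The 7 genes called in Aldh1l1-NuTRAP mice lie at 1.09 to 3.22, and Sparc is the one gene above 0 in the Cx3cr1-NuTRAP comparisons with the negative fraction and with input that is filled.

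Input and whole tissue of the Cx3cr1-NuTRAP mice already differed. Relative to whole tissue, Sparc was lower in the inputs (-0.82 ± 0.07, SE, adjusted p = 1.14e-05), as were Gpc5 (-0.45 ± 0.06, SE, adjusted p = 0.000178) and Sparcl1 (-0.39 ± 0.05, SE, adjusted p = 0.000111), on the log2 scale by edgeR. Chrdl1 was higher (0.57 ± 0.12, SE, adjusted p = 0.00301), from 7.63 to 13.8 CPM in whole tissue to 13.4 to 16.1 CPM in the inputs. Gpc6 was also called higher (0.32 ± 0.11, SE, adjusted p = 0.0328, edgeR), but not with the mouse as a block (adjusted p = 0.0988) or without any 1 of mice 192, 194, 209 and 277 (adjusted p of 0.0725 to 0.15). Of 13608 genes tested, 15.7% were called higher and 14.6% lower (2130 and 1993 genes). Without mouse 192, 194 or 209 these were 1409 and 1223, 1370 and 1204, and 1322 and 1265 genes. Other markers moved between the same libraries, with 4 of 5 neuronal and 2 of 4 choroid plexus markers called higher in the inputs. Called lower there were 5 of 5 endothelial, 3 of 4 tested pericyte and smooth muscle, 2 of 2 tested ependymal, 1 of 2 oligodendrocyte precursor and 1 of 5 astrocyte markers. Their part in these results was not tested.

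Between the negative fraction and the input, 0 of the 9 genes were called in either direction by edgeR or DESeq2, and 1 in each direction had an unadjusted p under 0.05. Of 13748 genes tested, 1.41% were called higher and 4.7% lower (194 and 646 genes). That background hung on single mice, at 1774 and 2041 genes without mouse 155, 3 and 0 without mouse 194, and 0 and 0 without any 1 of mice 192, 209, 210 and 277. The log2 fold changes lay between -0.18 and 0.38. The negative fraction and input of a mouse deviated together in most mice, and with the mouse as a block Sparc (0.16, adjusted p = 0.00102) and Gpc4 (0.25, adjusted p = 0.0378) were called higher in the negative fraction (edgeR).

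The positive fractions of the lines were then compared with each other. Of the 9 genes, 8 were higher on astrocyte than on microglial ribosomes, and Thbs1 was not called (-0.3 ± 0.28, SE, adjusted p = 0.361, edgeR). Of 13676 genes tested, 30.6% were called higher and 33.1% lower, and the median was 2.09 over the 9 genes against -0.08 over all genes. Gpc5 (3.4 ± 0.14, SE, adjusted p = 1.72e-08) and Chrdl1 (3.14 ± 0.13, SE, adjusted p = 1.84e-08) differed most on the log2 scale. Thbs4 (2.78), Sparcl1 (2.73) and Sparc (2.09) followed. Thbs2 (1.54 ± 0.14, SE, adjusted p = 3.4e-06), Gpc6 (1.45 ± 0.31, SE, adjusted p = 0.00186) and Gpc4 (1.31 ± 0.27, SE, adjusted p = 0.00154) differed least of the 8. Without mouse 290 the value of Gpc6 was 0.84 (adjusted p = 0.0105). Markers of other cells differed as well, with 5 of 5 neuronal markers called lower and 4 of 4 choroid plexus markers called higher in the Aldh1l1-NuTRAP positive fractions. Neuronal markers summed to 4210 to 6408 CPM in the Cx3cr1-NuTRAP positive fractions, a range that holds that of the inputs (5850.2 to 6202 CPM), and to 1163 to 1622 CPM in the Aldh1l1-NuTRAP positive fractions. The part of these cells in the differences was not tested. Line and cell type cannot be told apart from this comparison alone, since each line tags 1 cell type. The paper also describes a longer wait after tamoxifen in Cx3cr1-NuTRAP mice. Here and in the comparisons of the lines below, that wait cannot be told apart from line.

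The negative fractions of the lines served as a check. Of the 9 genes, 0 were called between them by edgeR in either direction, 2 had an unadjusted p under 0.05, both lower in Aldh1l1-NuTRAP mice, and DESeq2 called 1 lower. Of 13613 genes tested, 0.125% were called higher and 0.125% lower (17 and 17 genes, with 0 to 61 higher and 0 to 72 lower when each mouse was left out). The gene called by DESeq2 was Sparcl1, at 1582 to 1703 CPM in the Aldh1l1-NuTRAP and 2038 to 2200.4 CPM in the Cx3cr1-NuTRAP negative fractions. Its edgeR log2 fold change was -0.34 ± 0.06 (SE, adjusted p = 0.0728). It was called without mouse 155 (adjusted p = 0.0497), without mouse 290 (adjusted p = 0.0361) and under library totals only (adjusted p = 0.0437). Astrocyte markers summed to 1017 to 1096 CPM in the Aldh1l1-NuTRAP and 1168 to 1460.4 CPM in the Cx3cr1-NuTRAP negative fractions, with 1 of 5 called lower. Choroid plexus markers summed to 480.4 to 629.8 and 909 to 1386 CPM, with 1 of 4 called lower. The part of either in the Sparcl1 value was not tested.

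The difference between the lines in the positive to negative ratio was tested directly as an interaction. It was higher in Aldh1l1-NuTRAP mice for 7 of the 9 genes, and the rest were Gpc6 (0.43 ± 0.75, SE, adjusted p = 0.64) and Thbs1 (0.29 ± 0.35, SE, adjusted p = 0.487). Of 13983 genes tested, 25.5% were called higher and 29.9% lower, and the median was 2.14 over the 9 genes and -0.11 over all genes. Gpc5 differed by 3.65 ± 0.22 on the log2 scale (SE, adjusted p = 1.8e-10, edgeR) and Sparcl1 by 3.07 ± 0.16 (SE, adjusted p = 4.68e-11, edgeR). Sparc, which rose in both lines, still differed by 2.14 ± 0.17 (SE, adjusted p = 7.48e-09, edgeR).

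Over all 29 libraries the members varied together to different degrees, described here by Pearson's r of log2 CPM. The libraries share mice and depth differs between them, so no test is given. Sparcl1 correlated at 0.97 with Gpc5, 0.89 with Thbs4, 0.88 with Thbs2 and 0.83 with Chrdl1, but at 0.69 with Sparc. Sparc itself was closest to Gpc5 (0.79). Gpc6 had no correlation above 0.47 with any other member, and every correlation of Thbs1 was below 0.

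Among 14109 genes, those most like each member in this measure were also listed. The pattern of Sparcl1 was most like those of Slc39a12 (0.987), Tril (0.986) and the gap junction gene Gja1 (0.986), and that of Gpc5 like 2310022B05Rik (0.99), the glutamate dehydrogenase gene Glud1 (0.987) and Slc25a18 (0.986). Sparc was closest to Gpr56 (0.964), an adhesion receptor gene, Pmp22 (0.953) and Cables1 (0.952). Chrdl1 was closest to Yap1 (0.971), Lhx2 (0.97) and the proteoglycan gene Ncan (0.968). Thbs4 was closest to 5930403L14Rik (0.957), Sox21 (0.957) and the glutamate transporter gene Slc1a3 (0.954), and Thbs2 to Phlpp1 (0.945), Scd1 (0.944) and Slc4a4 (0.943). Of these neighbours, Gja1, Slc1a3 and Ncan are well-known astrocyte genes. The neighbours of Gpc6 were the RNA polymerase subunit gene Polr2l (0.94), the respiratory complex I gene Ndufa2 (0.937) and Ufc1 (0.927). Gpc6 was highest in both libraries of mouse 290 and in the negative fraction of mouse 155. The part of these libraries in its correlations was not tested. Gpc4 (Ppp1r2 at 0.824, Hspa2 at 0.812 and Calml4 at 0.807) and Thbs1 (Ptprm at 0.831, Zfpm2 at 0.83 and 5730455P16Rik at 0.829) had no neighbour above 0.84.

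The genes around these 9 in their pathways were read from 4 lists of named genes, described by counts and medians. These lists were chosen with earlier results of these data known, so their counts are not an independent test against all genes. In the list of other family members (13 genes of the SPARC, glypican, chordin and thrombospondin families), 11 were tested in Aldh1l1-NuTRAP mice, of which 4 rose and 6 fell in the positive fraction, with a median of -0.68. The shares over all genes, which hold for each of the 4 lists, were 26.8% higher and 24.8% lower in this comparison, and 23.3% and 25.6% in that of Cx3cr1-NuTRAP positive fractions with input. Spock3 (-1.93, adjusted p = 0.000404) and Smoc2 (-1.87, adjusted p = 0.00348), both SPARC relatives, fell most. Gpc2, a glypican of developing neurons (1.6, adjusted p = 0.00686), and Thbs3 (1.43, adjusted p = 0.00175) rose most. In Cx3cr1-NuTRAP positive fractions against input, 12 were tested, of which 3 rose and 4 fell, with a median of -0.14.

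Receptors and synaptic partners numbered 31, of which 27 were tested in Aldh1l1-NuTRAP mice, and 7 rose and 10 fell, with a median of -0.35 (26.8% and 24.8% over all genes). Of the list, 3 (Ptprd, Bmp2 and Bmpr2) were listed at 0 in every library, which can come from the counting and does not show that they were not expressed. Bmpr1b (2.99, adjusted p = 9.52e-05) and Bmpr1a (2.3, adjusted p = 0.000185), receptors for the ligands that chordin-like proteins bind, rose most. Cacna2d1 (-2.25, adjusted p = 0.000181), which codes for the thrombospondin receptor alpha2delta-1, and the integrin gene Itgb3 (-1.94, adjusted p = 0.00175) fell most. Partners of other members, named after their values were seen, were not all alike. Gpr158, a partner of glypican 4, had -1.67 (adjusted p = 0.00304), and Gria2, the GluA2 gene, had -1.25 (adjusted p = 0.000425). Gria1, the gene of another AMPA receptor subunit, went the other way, at 0.98 (adjusted p = 0.013). The neuroligin gene Nlgn1 (-0.23, adjusted p = 0.509) did not pass the test. In Cx3cr1-NuTRAP positive fractions against input, 28 were tested, of which 3 rose and 15 fell, with a median of -0.32 (23.3% and 25.6% over all genes).

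Of 22 enzymes that build, sulphate or cleave heparan sulphate, the glypican side chain, or release glypicans, 21 were tested in Aldh1l1-NuTRAP mice, and 3 rose and 9 fell, with a median of -0.04 (26.8% and 24.8% over all genes). The largest changes were falls of sulphotransferase genes, namely Hs6st3 (-2.74, adjusted p = 0.0214), Ndst3 (-1.88, adjusted p = 0.00342), Hs3st2 (-1.8, adjusted p = 0.000613) and Hs6st2 (-1.7, adjusted p = 0.00049). In Cx3cr1-NuTRAP positive fractions against input, 22 were tested, of which 1 rose and 11 fell, with a median of -0.34 (23.3% and 25.6% over all genes).

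Of 20 other secreted factors known from astrocytes, 19 were tested in Aldh1l1-NuTRAP mice, and 14 rose and 3 fell, with a median of 2.48 (26.8% and 24.8% over all genes). Timp4, a metalloproteinase inhibitor gene (4.06, adjusted p = 8.08e-05), the growth factor gene Mdk (3.87, adjusted p = 0.000486), Ndp, which codes for norrin (3.33, adjusted p = 0.000105), and Pla2g7 (3.19, adjusted p = 6.36e-05) rose most. In Cx3cr1-NuTRAP positive fractions against input, 18 were tested, of which 2 rose and 9 fell, with a median of -0.31 (23.3% and 25.6% over all genes). The values in these 4 lists are log2 fold changes with edgeR's adjusted p over all genes tested.

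**Figure D4:**
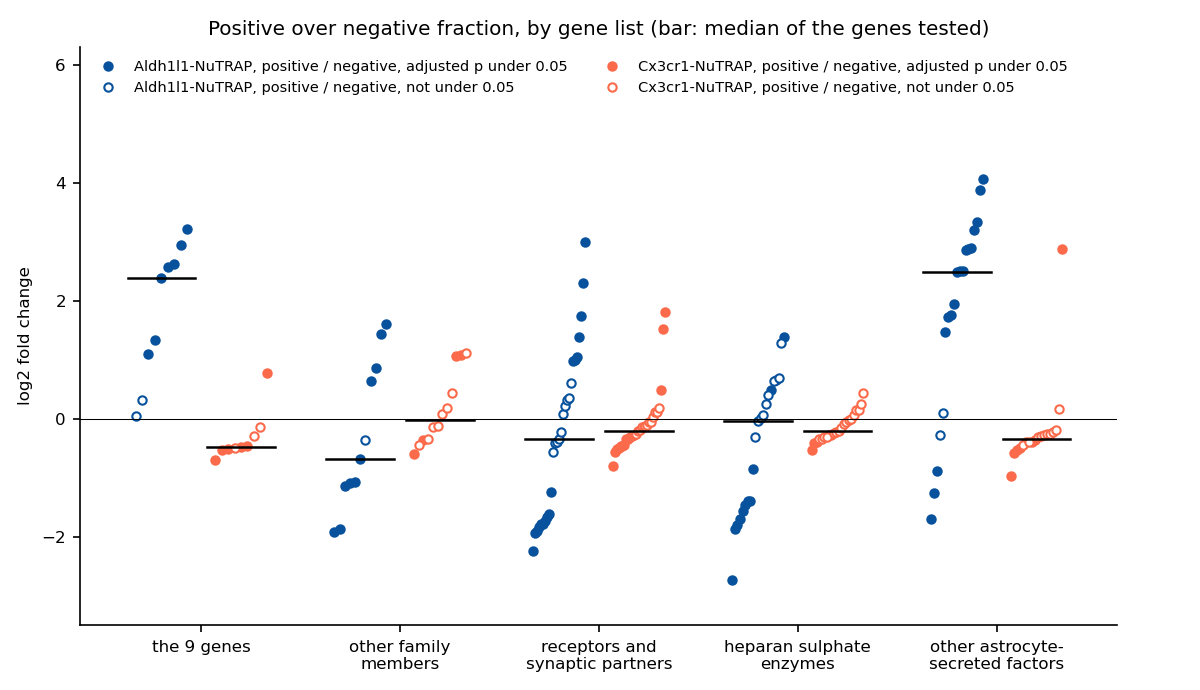
Log2 fold change of the positive over the negative fraction (y axis) for the 9 genes and the 4 lists, in Aldh1l1-NuTRAP (blue) and Cx3cr1-NuTRAP mice (red), with filled points at an adjusted p under 0.05 and a bar at the median of the genes tested. In Aldh1l1-NuTRAP mice the medians are 2.39 for the 9 genes and 2.48 for other astrocyte-secreted factors, and those of the other 3 lists are below 0.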

How the data were processed

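TRAP-RNAseq libraries of polyA RNA from 29 fractions of 9 mice were analysed, grouped by fraction and mouse as titled. Paired-end reads were trimmed, aligned to mm10 with strand kept and quantified in Strand NGS by the authors, who deposited expected counts for each gene. Of the nonzero values, 82.4% are not whole, and all were rounded for testing. The log2 values that the authors deposited after DESeq normalization were not used. As in the study's methods, a gene was tested where all libraries of 1 or more compared groups exceeded 20 counts. Counts were TMM scaled and compared in R 4.3.3 by edgeR 4.0.16 (two-sided quasi-likelihood F test, trended dispersion, robust fit), without the mouse as a block, with only the compared groups in each fit. SE is the absolute log2 fold change over the square root of F. Correlations used a prior count of 2. Python 3.11.15, pandas 2.3.3, numpy 2.4.6, scipy 1.17.1 and matplotlib 3.10.9 were used.

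Alternatives were RLE scaling, library totals only, no low-count filter, at least 100 counts, DESeq2 1.42.0, all groups in one fit, the mouse as replicate block, and each mouse left out. Fractions of one mouse are paired because they come from the same animal. Their residuals correlated above 0.1 in 3 of 3 Aldh1l1-NuTRAP pairs, 5 of 6 negative and input pairs, 3 of 6 positive and negative pairs, 3 of 6 positive and input pairs, and 0 of 5 for whole tissue with either input or positive. Depths are given with the results, and low counts limit Thbs1 most. The members and gene lists were chosen with earlier results of these data known. The genes named are the 9 members, up to 4 genes of each list with the largest called change in Aldh1l1-NuTRAP mice, 3 neighbours per member, markers, and those said to be chosen later. Markers of mature oligodendrocytes are not reported here, so the tallies of marker lists are not complete. Of the per-sample columns, 0 lacked a sample. No protein sequences were used here.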

Additional observations from a re-analysis of the deposited data

Results flagged for a closer look

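In groups of 4 to 10 libraries, 36 combinations of gene and group were examined for a library far from the others by Dixon's test, and 3 were found, where chance gives about 1 in 20. Gpc4 in the input of mouse 210 was at 18 CPM, with the other 5 inputs at 8.83 to 12.2 CPM. Gpc5 in the whole tissue of mouse 209 was at 68.5 CPM, with the other 4 at 64.6 to 65.7 CPM, a small difference in a tight group. Gpc6 in the negative fraction of mouse 155 was at 87.4 CPM, with the other 5 at 25.6 to 31.6 CPM.

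The positive to negative log2 ratio differed between the lines for 7 of 9 genes by the interaction test of edgeR. The differences, Aldh1l1-NuTRAP minus Cx3cr1-NuTRAP, were 3.07 for Sparcl1, 2.14 for Sparc, 1.55 for Gpc4, 3.65 for Gpc5, 3.06 for Chrdl1, 1.79 for Thbs2 and 3.05 for Thbs4. Sparc rose in both lines, and the other 6 genes rose in Aldh1l1-NuTRAP mice while their fitted log2 ratios in Cx3cr1-NuTRAP mice were below 0, that of Gpc4 without passing the test.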

How the results depend on the processing

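Of 539 recomputed member values other than those leaving out a mouse, 525 kept their direction and their side of the threshold, and of 540 that left out a mouse, 511 did. In Aldh1l1-NuTRAP mice the number of genes higher was 7 under each other setting and 7 to 8 without each mouse. In Cx3cr1-NuTRAP mice, positive against whole tissue, the number higher was 0 with all groups in one fit and 0 to 1 without each mouse. For input against whole tissue it was 1 with all groups in one fit, 1 with the replicate block and 1 to 2 without each mouse. For negative against input it was 2 with the replicate block. Between negative fractions the number lower was 1 under library totals only, 1 by DESeq2 and 0 to 1 without each mouse. The replicate block changed 5 calls of single members, all given above, and no other. Values that turned sign were Gpc6 (-0.02) and Thbs1 (-0.3) in Aldh1l1-NuTRAP mice under library totals only, and Gpc4 in positive against whole tissue (-0.01 under RLE and -0.01 by DESeq2). None of these was called. With at least 100 counts required, Thbs1 had no value in any comparison and Thbs4 had none in positive against whole tissue.

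Leaving out a mouse turned the sign of values that were not called in 14 cases. The ranges were -0.13 to 0.15 for Thbs1 in Aldh1l1-NuTRAP mice, -0.33 to 0.32 for Gpc6 in positive against negative and -0.2 to 0.17 for Gpc4 in positive against whole tissue. In negative against input they were -0.03 to 0.49 for Gpc6, -0.19 to 0.02 for Thbs1 and -0.05 to 0.13 for Thbs4, and in input against whole tissue -0.03 to 0.09 for Thbs1. Between negative fractions they were -0.19 to 0.02 for Sparc, -0.43 to 1.45 for Gpc6 and -0.02 to 0.22 for Chrdl1, and for the interaction -0.03 to 1.26 for Gpc6.

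Over all genes, negative against input gave 194 higher and 646 lower, but 53 and 228 without the filter, 766 and 1290 by DESeq2, 0 and 59 with all groups in one fit, 2431 and 2684 with the replicate block, and 0 to 1774 and 0 to 2041 without each mouse. Input against whole tissue gave 2130 and 1993, but 1167 and 1283 with all groups in one fit. Between negative fractions there were 17 and 17, but 256 and 261 by DESeq2, 6 and 8 without the filter and 8 higher under library totals only. Without each mouse, positive against negative gave 1977 to 4887 and 1600 to 4844 in Aldh1l1-NuTRAP mice. The causes were not tested. Library totals only moved the median log2 fold change of all genes from -0.08 to -0.39 between positive fractions and from -0.11 to -0.38 for the interaction, and the share of calls that were higher from 48% to 31.4% and from 46.1% to 31.3%. Between negative fractions that share moved from 50% to 28.6%.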
